A study of Danio rerio with 24 samples.

Results

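The genes described here moved in opposite directions in 2 sets of regenerating zebrafish caudal fins during the 12 h after amputation. Expression was measured on 24 arrays in 8 groups of 3, at 0, 12, 24 and 48 h after amputation in wild-type fish of 2 arms. Fish of the metabolic memory arm had received streptozocin, a toxin that kills pancreatic beta cells, at 350 mg/kg on 5 injection days followed by 60 days off the drug. Control fish had been injected with an equal volume of citrate buffer, although the design text calls them untreated, and neither age nor sex is given for either arm. The labels name 15 fins collected as triplicate samples and leave it unsaid whether separate fish gave the 3 samples of each group, so the p-values given measure only the spread between these samples, which may be technical. A probe set, the unit that reads 1 transcript on the array, was taken as a member when its mean at 12 h lay at least 0.4 log2 units above its mean at 0 h in one arm and at least 0.4 below it in the other. It also had to reach a log2 signal of 4 on 3 or more of the 24 arrays. The rule gave 118 members among 10140 probe sets that reached that signal. In 71 of them, called the control-up set, control fins were higher at 12 h and memory fins lower. In the other 47, the memory-up set, the directions were the other way round. A single gene symbol was available for 82 members, which stand for 79 genes; 3 had several symbols and 33 none.

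After amputation a zebrafish fin closes the wound with epidermis within hours, then forms a blastema of proliferating mesenchymal cells under it, from which the lost rays grow back. The hours before the blastema forms are a time of wide change in transcript levels. Metabolic memory is the persistence of complications after high blood glucose has ended; zebrafish regrow their beta cells once the toxin is withdrawn, so the fish of the memory arm are a model of past rather than present hyperglycaemia.

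The members were chosen by the means of the 12 arrays at 0 and 12 h, so every value at those times, every difference between the arms there, and every change from 0 or 12 h is given as a description with no test. Tests compared the means of the 12 arrays at 24 and 48 h, which the changes in the rule did not use. The spread behind their standard errors and p-values was estimated from all 24 arrays, those at 0 and 12 h included. Within-group correlations over all probe sets were 0.978 to 0.996. They were lowest among control fins at 12 h, 0.978 to 0.988, a group whose mean enters the rule. Mean signal of 9 array control probe sets was 9.53 to 9.93 on the 0 and 12 h arrays and 9.13 to 9.47 on the 24 and 48 h arrays. The rule therefore compared arrays within the first range, and the tests compared arrays within the second. All 6 epidermal markers reached the signal minimum, and their mean log2 signal was 12.11 to 12.94 over the arrays.

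The opposite changes were moderate in size. Over the control-up set the median difference, 12 h minus 0 h, was 0.65 in control fins and -0.60 in memory fins, on the log2 scale. Over the memory-up set the medians were -0.55 in control and 0.57 in memory fins. Both changes reached 0.6 in 19 control-up and 4 memory-up members. The smaller of the changes was under 0.5 in 35 and 26 members respectively. Opposite movement was rare beside shared movement, since 2579 probe sets were higher at 12 h by at least 0.4 in both arms and 2488 were lower by as much in both. Just inside the threshold lay *naxe*, with differences of 0.40 in control and -0.81 in memory fins, and *mxa*, with -0.50 and 0.40. Just outside it lay *ercc6l*, with 0.93 in control and -0.40 in memory fins. Of 5362 probe sets under the signal minimum, 1 met the opposite changes. The minimum was reached on the 0 and 12 h arrays alone by 68 of the 71 control-up and 46 of the 47 memory-up members. All 24 arrays reached a log2 signal of 4 in 49 and 36 members respectively. Some group mean was below 4 in 16 and 8.

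**Figure D1:**
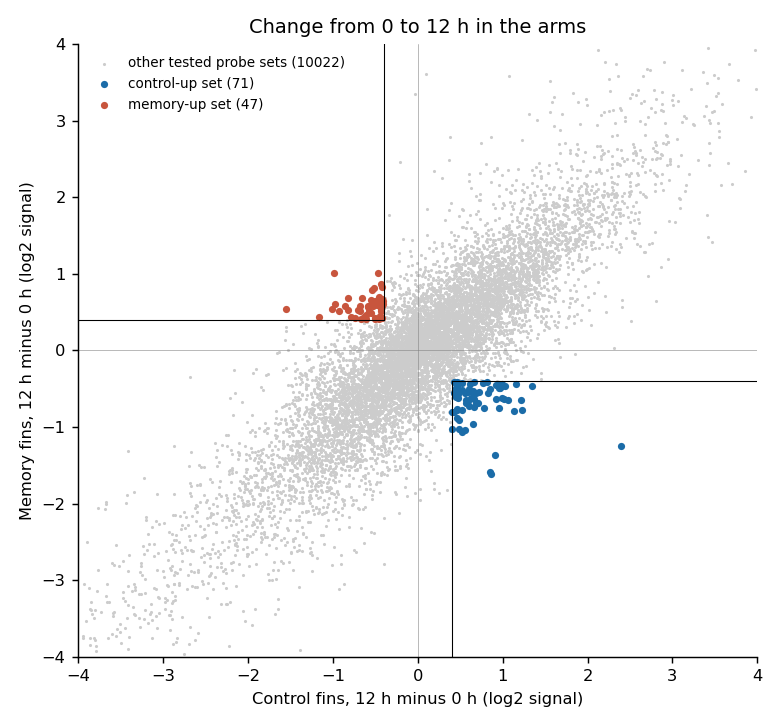
Log2 difference between 12 h and 0 h in control fins (horizontal) and in memory fins (vertical), each the difference of 2 means of 3 arrays, for the 71 control-up members (blue), the 47 memory-up members (red) and the other 10022 probe sets (grey). The thin lines mark the threshold of 0.4 in each arm; most grey points follow the diagonal, 149 of them lie beyond the axes at 4, and the members sit near the corners of the threshold.

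The 3 arrays at 12 h did not overlap the 3 at 0 h in control fins for 47 of the 71 control-up members and in memory fins for 59. Neither arm overlapped for 41 of them. In the memory-up set the counts were 33, 34 and 25 of 47. Over all 10140 probe sets the shares without overlap were 67.5% in control fins, 72.2% in memory fins and 55.8% in both. The 1 member whose changes both exceeded 1, a probe set with no gene name, read 3.32, 10.29 and 2.85 on the control arrays at 0 h, and its control arrays at 12 h lay within that range.

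Of 47 measured genes listed for DNA replication and nucleotide supply, *rfc1* and *slbp* were control-up members, and of 50 listed for p53, DNA damage and apoptosis, *parp3* was. *rfc1* encodes the large subunit of the clamp loader that places PCNA on replicating DNA. Its log2 signal was 6.33, 6.25 and 6.38 in control fins at 0 h and 7.15, 6.67 and 6.81 at 12 h. In memory fins it was 6.20, 6.20 and 6.49 at 0 h and 5.17, 5.47 and 5.13 at 12 h. The arms thus overlapped at 0 h and were fully apart at 12 h, control fins having moved up and memory fins down. The differences between 12 h and 0 h were 0.55 ± 0.13 and -1.04 ± 0.13 (± standard error, 3 arrays a group).

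*rnaseh2b*, a subunit of the RNase H2 enzyme that removes ribonucleotides from DNA, had the same pattern. Control fins gave 7.04, 6.88 and 6.74 at 0 h and 8.11, 7.82 and 7.92 at 12 h, and memory fins gave 6.93, 6.81 and 6.87 at 0 h and 6.17, 6.15 and 6.34 at 12 h. The memory arrays at 12 h were all below every array of both arms at 0 h, and the control arrays at 12 h were all above them. *mad2l2*, a component of translesion DNA polymerase zeta, differed between 12 h and 0 h by 1.13 ± 0.17 in control and -0.79 ± 0.17 in memory fins. *parp3*, a poly(ADP-ribose) polymerase family member active at DNA breaks, had differences of 0.65 ± 0.11 and -0.54 ± 0.11. *slbp*, whose protein binds the stem-loop of histone mRNA, had 0.52 ± 0.18 and -0.52 ± 0.18.

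Chromatin and transcription genes of the control-up set included *cbx1a*, which encodes a heterochromatin protein 1 that binds methylated histone H3. It read 7.75, 7.54 and 7.30 in control fins at 0 h and 8.56, 8.51 and 8.44 at 12 h. Memory fins gave 7.73, 7.82 and 7.58 at 0 h and 7.16, 7.23 and 7.28 at 12 h. Neither arm's 12 h arrays overlapped its 0 h arrays, and the differences were 0.97 ± 0.10 and -0.49 ± 0.10. *smarcb1b*, a core subunit of SWI/SNF remodelling complexes, had differences of 0.65 ± 0.13 and -0.53 ± 0.13. *tfdp1a*, the partner through which E2F factors bind DNA, had 0.63 ± 0.13 and -0.62 ± 0.13. *tmpoa*, a lamina-associated protein, was a further member.

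Other control-up members included genes of mitochondria and cilia, among others. *tfam*, which packages mitochondrial DNA, differed by 0.57 ± 0.14 in control and -0.65 ± 0.14 in memory fins. *cpt2*, which releases fatty acids into the mitochondrial matrix for oxidation, had 1.16 ± 0.14 and -0.44 ± 0.14. *sephs1*, a selenophosphate synthetase family member, had 1.22 ± 0.16 and -0.64 ± 0.16, and *ywhah*, a 14-3-3 protein, 0.99 ± 0.13 and -0.62 ± 0.13. *rab3ip* and *ift52*, which act in the building of cilia, had 0.67 and 0.49 in control fins and -0.74 and -1.03 in memory fins.

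The largest separation of the arms at 12 h among named members belonged to *slmapb*, a tail-anchored membrane protein known from the sarcolemma and from STRIPAK phosphatase complexes. It read 5.63, 5.61 and 5.62 in control fins at 0 h and 6.36, 6.55 and 6.50 at 12 h. Memory fins gave 5.54, 5.63 and 5.54 at 0 h and 4.32, 3.75 and 3.88 at 12 h. The arms were level at 0 h. At 12 h the memory arrays at 3.75 and 3.88 were under the signal minimum of 4, and memory fins were lower by a log2 difference of -2.48 ± 0.17. *tdrkh*, a tudor domain protein of the piRNA pathway, followed with -2.26 ± 0.24 and was already -0.54 ± 0.24 at 0 h.

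Of 61 measured genes of keratins and epidermal junctions, *tp63* and *cldn7b* were memory-up members, and of 26 collagens, laminins and integrins, *itga6b* was. *tp63* encodes the transcription factor of basal epidermal cells. Its member probe set read 7.86, 8.16 and 8.42 in control fins at 0 h and 7.47, 7.85 and 7.89 at 12 h. Memory fins gave 7.66, 8.05 and 7.89 at 0 h and 8.24, 8.61 and 8.67 at 12 h. In control fins 1 array at 0 h lay within the 12 h range, and the arms did not overlap at 12 h. *itga6b*, an integrin alpha 6 subunit that anchors epidermis to its basement membrane, differed by -0.54 ± 0.25 in control and 0.79 ± 0.25 in memory fins. *cldn7b*, a tight junction claudin, had -0.55 ± 0.16 and 0.61 ± 0.16, and unlike *itga6b* it was lower in memory fins at 0 h, by a log2 difference of -0.65 ± 0.16.

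Other named memory-up members included *nrarpa*, *insig1*, *per2* and *nrg1*. *nrarpa*, a target and feedback inhibitor of Notch signalling, read 5.94, 6.25 and 6.30 in control fins at 0 h and 5.56, 5.27 and 5.63 at 12 h, against 5.52, 5.64 and 5.81 and then 6.21, 6.05 and 6.44 in memory fins. On this member probe set, memory fins were below control fins on every array at 0 h and above them on every array at 12 h. *insig1*, which holds the sterol sensor SCAP in the endoplasmic reticulum and so restrains sterol synthesis, was a member through 2 probe sets, with differences of -0.59 ± 0.30 and -1.01 ± 0.35 in control and 0.57 ± 0.30 and 0.54 ± 0.35 in memory fins. *per2*, a light-responsive repressor of the circadian clock, had -0.71 ± 0.36 and 0.53 ± 0.36, the time of day of sampling not being given. *nrg1*, a neuregulin that signals through ErbB receptors, had -0.45 ± 0.49 and 0.70 ± 0.49, and in control fins its arrays at 12 h overlapped those at 0 h.

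**Figure D2:**
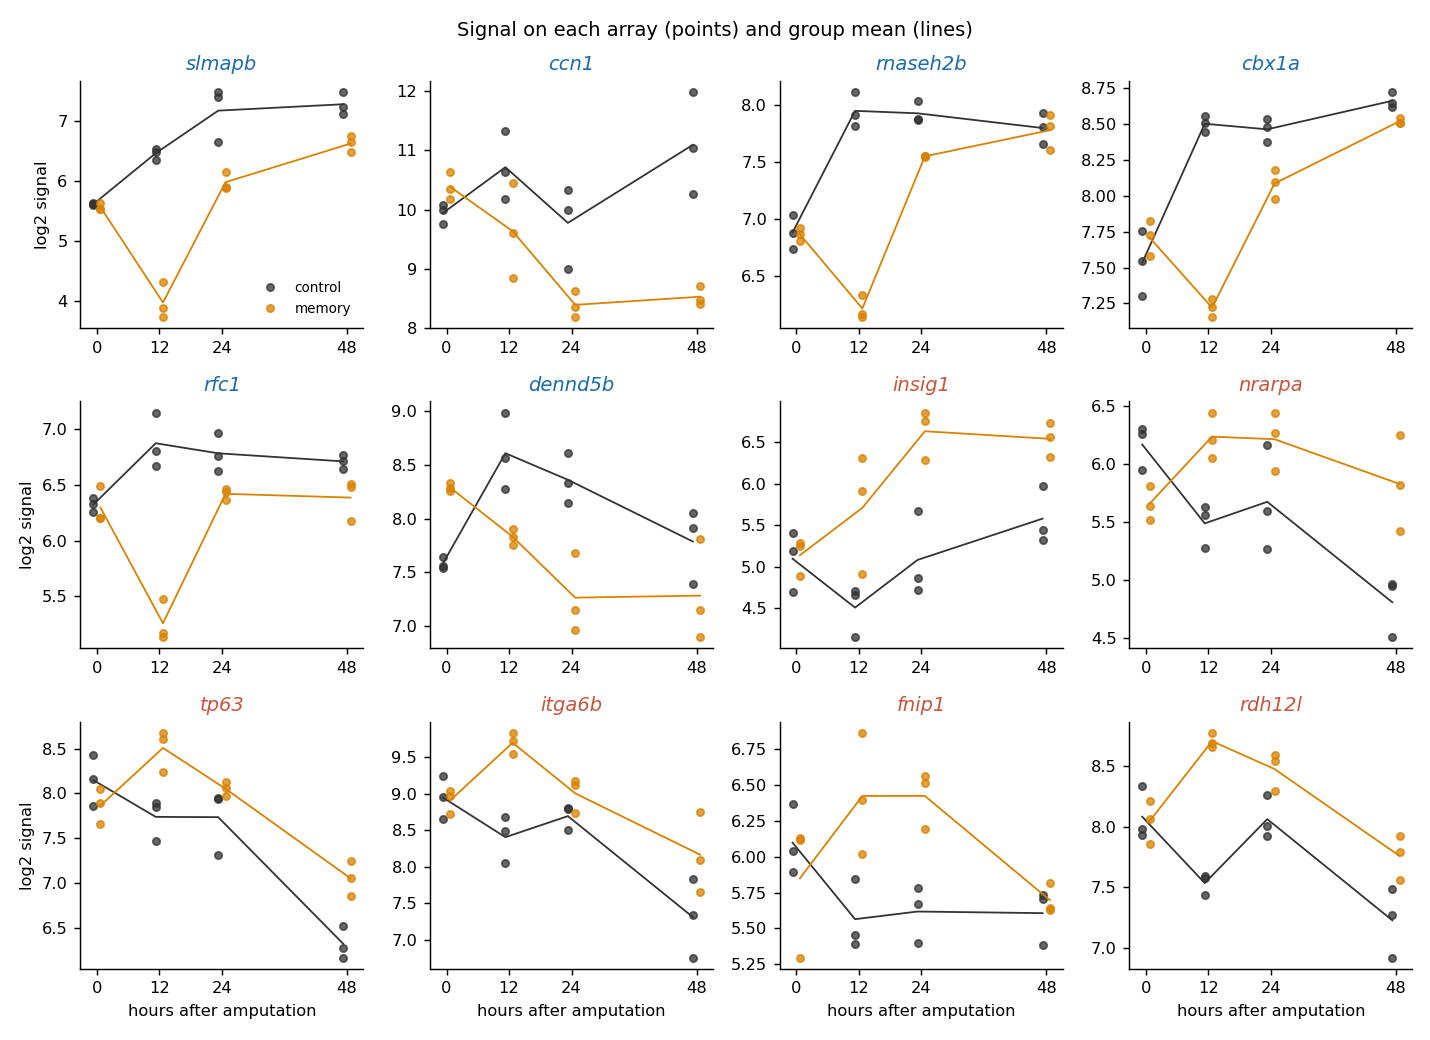
Log2 signal on each of the 24 arrays (points) and the mean of 3 (lines) against hours after amputation, in control (black) and memory fins (orange), for 6 control-up members (blue names) and 6 memory-up members (red names); for *ccn1* and *insig1*, the first of the member probe sets is shown. The means of the arms part at 12 h in every panel by the choice of the members; *slmapb*, *rnaseh2b*, *cbx1a* and *rfc1* have their lowest memory mean at 12 h, and at 48 h the arms do not overlap for *slmapb*, *cbx1a*, *rfc1*, *ccn1*, *tp63* and *nrarpa*.

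Among lists of genes by pathway, 15 of 38 held at least 1 member, and 18 member genes were on any list; 1.22% of all 6451 genes with a single symbol were members. Of 47 measured genes of DNA replication and nucleotide supply, 38 were higher at 12 h by 0.4 or more in control fins and 18 in memory fins, with median differences of 1.13 and 0.24. *rfc1* and *slbp* were thus the members of a list of which 17 genes were higher by that much in both arms. At 24 h no gene of the list differed between the arms after adjustment, where 3.38% of all probe sets did. At 48 h 1 was higher in memory fins, where 5.69% of all probe sets differed in either direction. Of 61 measured genes of keratins and epidermal junctions, *cldn7b* and *tp63* were the members, 15 were higher by 0.4 in both arms and 17 lower in both. In that list memory fins were higher for 6 and lower for 2 genes at 48 h, and higher for 1 and lower for 2 at 24 h. The chromatin list of 73 held *cbx1a* and *smarcb1b*, the lipid and sterol list of 51 held *cpt2* and *insig1*, and the clock list of 28 held *per2*. The ribosome assembly list of 70 genes, with 65 higher in both arms, held no member.

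At 0 h the means of most members differed between the arms in the sense opposite to that at 12 h, and the difference was 0.4 or more in size in 19 control-up and 12 memory-up members. Memory fins were above control fins in 53 of 71 control-up members and below them in 34 of 47 memory-up members, with median log2 differences of 0.16 and -0.13. At 12 h they were below in 70 of 71, with a median of -1.12, and above in all 47, with a median of 0.96. The difference at 12 h was larger in size than that at 0 h in 64 control-up and 42 memory-up members. The 0 h means enter both changes of the rule, so these values are part of the choice of members.

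From 12 to 24 h the memory arm moved back. Over the control-up set the median difference, 24 h minus 12 h, was 0.78 in memory fins and -0.14 in control fins, and over the memory-up set it was -0.62 and 0.19. Non-members whose 12 h change differed between the arms by 0.8 or more moved alike. Those with the lower change in memory fins had medians of 0.60 in memory and -0.13 in control fins. Those with the higher change had -0.63 and 0.15. Over all probe sets the medians were 0.02 and -0.004. The return was thus not particular to the members. All these values share their 12 h arrays with the rule. They and the later changes from 0 h also cross the ranges of array control signal. Those were 9.53 to 9.93 on the 0 and 12 h arrays and 9.13 to 9.47 on the 24 and 48 h arrays. The part of that shift in these changes was not tested. Relative to each arm's own 0 h, the medians of the control-up set at 12, 24 and 48 h were 0.65, 0.48 and 0.97 in control and -0.60, 0.13 and 0.42 in memory fins. Those of the memory-up set were -0.55, -0.38 and -1.06 in control and 0.57, -0.08 and -0.33 in memory fins. By 48 h the medians of both arms thus lay on the side of 0 h on which control fins had been at 12 h.

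**Figure D3:**
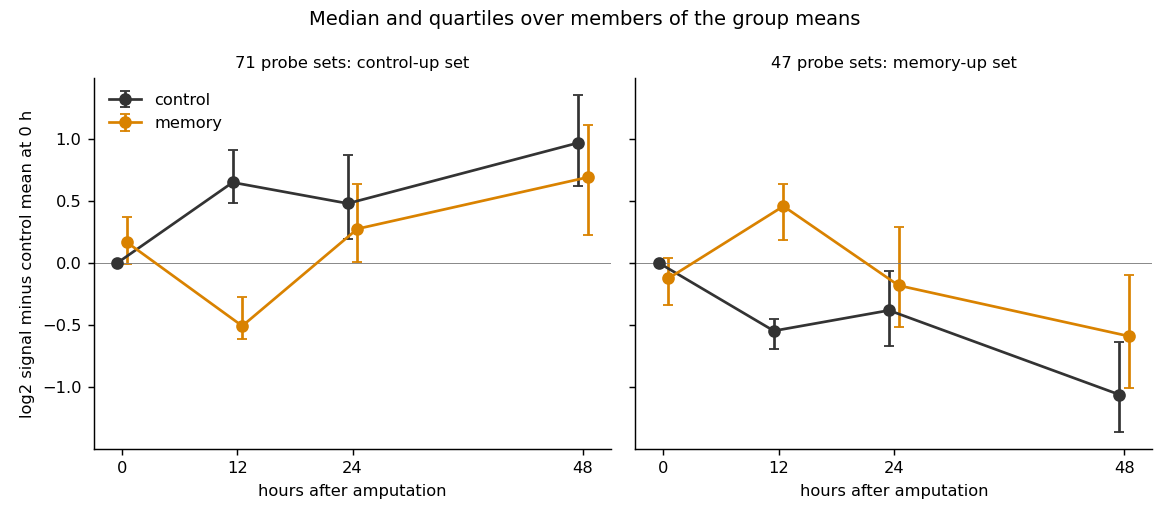
Median over members of the group mean minus the control mean at 0 h (log2 signal), with bars from the lower to the upper quartile, against hours after amputation, for the 71 control-up members (left) and the 47 memory-up members (right). Memory fins are at -0.51 against 0.65 in control fins at 12 h in the left panel and at 0.46 against -0.55 in the right panel; at 48 h both arms are on the same side of 0. The 24 and 48 h arrays had lower array control signal than the 0 and 12 h arrays.

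On the 24 h arrays, which had no part in the rule's changes, 14 members differed between memory and control fins, and each lay on the side it had taken at 12 h. Memory fins were lower for 9 of 71 control-up members and higher for 5 of 47 memory-up members, and no member was called the other way. The test was limma's moderated test fitted to all 10140 probe sets with Benjamini-Hochberg adjustment at 0.05, which called 3.38% of them, 1.48% higher and 1.90% lower in memory fins. By mean alone, memory fins were below control fins in 56 control-up members, with a median of -0.22, and above in 31 memory-up members, with a median of 0.14, the median over all probe sets being -0.01. The 3 memory arrays lay wholly below the 3 control arrays in 28 control-up members, a separation found in 15.4% of all probe sets, and wholly above them in 11 memory-up members, against 13.4%. The opposite separation was found in 4 control-up and 3 memory-up members. In bulk tissue, fewer cells that carry a transcript and less of it per cell cannot be told apart.

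*slmapb* was the firmest of these. It read 7.48, 7.40 and 6.65 in control fins at 24 h and 6.16, 5.89 and 5.90 in memory fins. All memory arrays were below all control arrays, although both arms were now above their 0 h level. That comparison with 0 h crosses the ranges of array control signal. The log2 difference was -1.19 ± 0.17, 2.28-fold lower in memory fins, with adjusted p = 0.00141 by limma, and it passed the threshold under every alternative run, the highest adjusted p being 0.0462. *dennd5b*, which activates Rab GTPases of membrane traffic, read 8.33, 8.61 and 8.15 in control fins and 7.68, 7.15 and 6.97 in memory fins at 24 h, without overlap, a log2 difference of -1.10 ± 0.22 (limma adjusted p = 0.0119). At 0 h the order of the arms had been the reverse, with memory fins above control fins by 0.71 ± 0.22.

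*parp3* was lower in memory fins by a log2 difference of -0.45 ± 0.11 (limma adjusted p = 0.0319), and *cbx1a* by -0.38 ± 0.10 (0.0388). *cnpy4*, a chaperone of the secretory pathway, was lower by -0.71 ± 0.18, and *rnf130*, a transmembrane ubiquitin ligase, by -0.62 ± 0.17, with limma adjusted p of 0.0305 and 0.0451. *rnaseh2b* and *rfc1*, so far apart at 12 h, gave -0.38 ± 0.10 and -0.36 ± 0.13 with adjusted p of 0.0508 and 0.125, which did not pass. In the other direction *insig1* read 4.72, 4.86 and 5.67 in control fins and 6.28, 6.75 and 6.86 in memory fins. The memory arrays were all higher, by a log2 difference of 1.55 ± 0.30 or 2.93-fold (limma adjusted p = 0.0103), and the other member probe set gave 1.38 ± 0.35 (0.0308). *fnip1*, a partner of folliculin in nutrient sensing, was higher by 0.80 ± 0.22 (limma adjusted p = 0.0443).

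The number of members called at 24 h moved when single arrays were left out, without a comparison with all probe sets. It fell from 14 to 1 when control array 1, control array 2 or memory array 3 at 24 h was left out, and to 5 without memory array 2, and each of the named calls at 24 h other than that of *slmapb* was lost without control array 1.

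At 48 h, 18 members differed between the arms, again all on the side of 12 h. Memory fins were lower for 8 control-up members and higher for 10 memory-up members, where 5.69% of all probe sets were called by the same limma fit, 2.75% higher and 2.94% lower. By mean, memory fins were below control fins in 60 of 71 control-up members, with a median of -0.22, and above in 36 of 47 memory-up members, with a median of 0.24. The arms did not overlap, with memory fins lower, in 28 control-up members, against 14.1% of all probe sets, and with memory fins higher in 18 memory-up members, against 17.3%. In 1 member of each set the separation was the opposite one. Both 24 and 48 h means were below control in 49 control-up members and above it in 29 memory-up members. No array of one arm overlapped the other at either time in 14 control-up members with memory fins lower, against 5.25% of all probe sets, and in 7 memory-up members with memory fins higher, against 4.97%.

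*ccn1*, a matricellular protein of the wound matrix and a target of Yap, had the largest difference. Its first probe set read 11.99, 11.04 and 10.26 in control fins at 48 h and 8.71, 8.46 and 8.40 in memory fins, and its second 8.47, 7.32 and 6.65 against 5.47, 4.83 and 4.43. On both probe sets every memory array was below every control array. The log2 differences were -2.57 ± 0.40 and -2.57 ± 0.45, 5.95-fold and 5.94-fold lower, with limma adjusted p of 0.00128 and 0.00247, and both passed under every alternative run. The same probe sets gave -1.39 ± 0.40 and -1.45 ± 0.45 at 24 h, with adjusted p of 0.0592 and 0.0820. Their control arrays at 12 h had overlapped the memory arrays in signal, 10.64, 11.33 and 10.19 against 10.45, 9.61 and 8.84 on the first.

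*pdcd4b*, related to a repressor of translation that binds eIF4A in mammals, read 6.40, 5.97 and 5.37 in control fins at 48 h and 4.51, 4.27 and 4.06 in memory fins. The arms did not overlap, and the log2 difference was -1.63 ± 0.36 or 3.09-fold (limma adjusted p = 0.0112). *tdrkh* was lower by -0.96 ± 0.24 (0.0224), *pafah1b2*, a catalytic subunit of an enzyme that inactivates platelet-activating factor, by -0.87 ± 0.25 (0.0440), and *slmapb* by -0.65 ± 0.17 (0.0279). *slmapb* and a probe set with no gene name were the control-up members called at both 24 and 48 h.

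Of the memory-up set at 48 h, *nrarpa* read 4.50, 4.95 and 4.96 in control fins and 5.42, 6.25 and 5.81 in memory fins, and *tp63* 6.17, 6.28 and 6.52 against 6.86, 7.25 and 7.05. In both genes all memory arrays were above all control arrays. The log2 differences were 1.02 ± 0.21 (limma adjusted p = 0.00913) and 0.73 ± 0.18 (0.0214), that is 2.03-fold and 1.66-fold. *rdh12l*, a retinol dehydrogenase family member, was higher by 0.53 ± 0.14 (0.0347) and *tmcc1b*, a protein of the endoplasmic reticulum membrane, by 0.70 ± 0.20 (0.0440). *itga6b* gave 0.86 ± 0.25 with adjusted p = 0.0524 and did not pass, and *cldn7b* gave 0.24 ± 0.16 with 0.412. A probe set with no gene name was the memory-up member called at both times, with 1.00 ± 0.24 at 24 h and 1.29 ± 0.24 at 48 h (limma adjusted p of 0.0243 and 0.00347). Its arrays at 48 h read 6.27, 6.21 and 6.23 in control and 7.32, 7.68 and 7.56 in memory fins, the arms lying apart and each closely grouped.

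Left-out arrays moved the count at 48 h as well, again without a comparison with all probe sets. The count fell from 18 to 5 without control array 1 or memory array 2 at 48 h, to 7 without memory array 3 and to 8 without control array 2. *nrarpa* lost its call without control array 1 or memory array 2, *pdcd4b* without control array 1 or memory array 3, and *tp63*, *tdrkh* and *rdh12l* without any one of control arrays 1 and 2 and memory arrays 2 and 3. *slmapb* and *pafah1b2* lost their calls at 48 h when any 1 of the 6 arrays other than control array 3 was left out, and *tmcc1b* when any 1 of the 6 was.

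**Figure D4:**
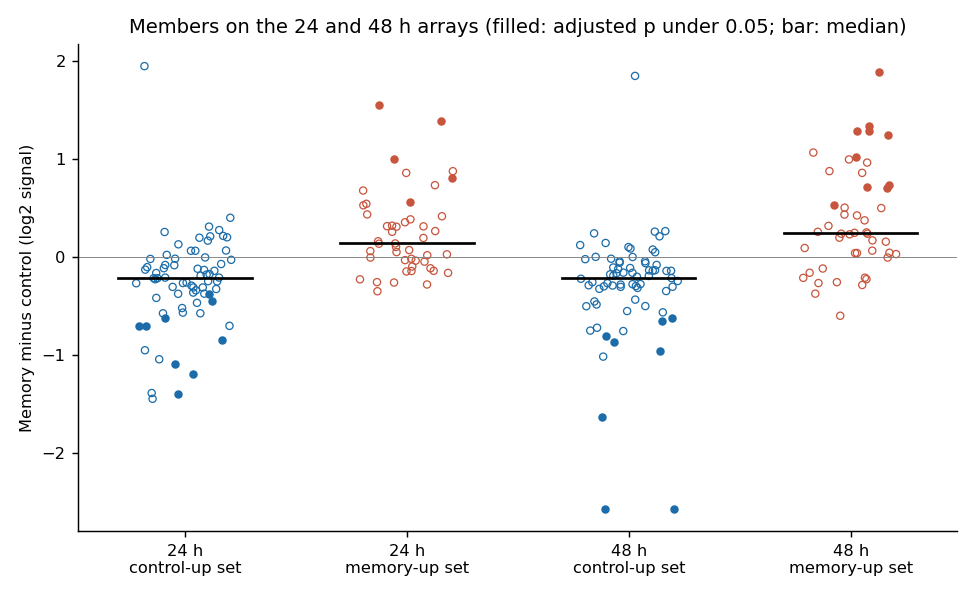
Memory minus control (log2 signal, difference of 2 means of 3 arrays) at 24 and 48 h for the 71 control-up (blue) and 47 memory-up members (red); filled points have an adjusted p under 0.05 by limma over 10140 probe sets and bars are medians, -0.22 and 0.14 at 24 h and -0.22 and 0.24 at 48 h. All filled blue points lie below 0 and all filled red points above it; the open blue point at 1.94 at 24 h is the unnamed probe set whose 0 h control arrays ranged from 2.85 to 10.29, and has a standard error of 1.65.

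Probe sets that were not members but whose 12 h change differed between the arms by as much as the rule requires, 0.8 or more, were also called mostly on the side taken at 12 h. Of 685 such probe sets with the lower change in memory fins, 184 had changes of opposite sign in the arms that fell short of the rule, and 8.61% were called lower in memory fins at 24 h and 8.61% at 48 h, beside 12.7% and 11.3% of the control-up members. Of 471 with the higher change in memory fins, 128 had changes of opposite sign, and 4.67% and 12.7% were called higher, beside 10.6% and 21.3% of the memory-up members. Whether these shares differ was not tested. Within the control-up set the difference between the arms at 12 h correlated with that at 24 h with r = 0.483. With that at 48 h r was 0.402. In the memory-up set r was 0.314 and 0.562. These are descriptions over members, not over replicate samples. The sets were not pooled, because the rule placed them on opposite sides at 12 h. The control-up values include the unnamed probe set whose changes both exceeded 1. In it memory fins were above control fins by 1.90 at 12 h.

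From 24 to 48 h, 18 members of each set passed the test in both arms, and each of these moved the same way in both. Of the control-up set, 30 of 71 rose in control fins and 24 in memory fins, none was called lower, and 41 and 47 did not pass. The 18 called in both arms all rose, beside 10.9% of all probe sets that rose in both. By mean, 8 control-up members were lower at 48 h in control fins and 7 in memory fins. Of the memory-up set, 28 of 47 fell in control and 20 in memory fins, 2 and 3 rose, and 17 and 24 did not pass. Of the 18 called in both arms 17 fell, beside 8.49% of all probe sets, and 1 rose; 19.4% of all probe sets were called in both arms in either direction. Over all probe sets 30.9% were called in control fins, 15.0% rising and 15.9% falling, and 27.4% in memory fins, 14.4% rising and 13.1% falling, by limma at an adjusted p of 0.05. Among the 685 non-members with the lower 12 h change in memory fins, 33.0% rose in control and 32.1% in memory fins. The control-up shares were 42.3% and 33.8%. Among the 471 with the higher change, 46.1% and 35.5% fell, beside 59.6% and 42.6% of the memory-up members. These shares were not tested against each other. *tp63* fell by 1.41 ± 0.18 on the log2 scale in control fins and by 1.00 ± 0.18 in memory fins (limma adjusted p of 3.84e-06 and 0.000261). *sh3yl1*, an SH3 domain protein that binds membrane phosphoinositides, fell by 1.03 ± 0.12 and 0.70 ± 0.12, with adjusted p of 7.63e-07 and 9.94e-05. In control fins it read 7.60, 7.51 and 7.67 at 24 h and 6.33, 6.54 and 6.81 at 48 h. Every 48 h array was below every 24 h array.

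*smarcb1b* rose by 0.99 ± 0.13 in control and 1.18 ± 0.13 in memory fins (limma adjusted p of 7.88e-06 and 8.47e-07). It read 6.78, 6.60 and 6.49 at 24 h and 7.76, 7.55 and 7.51 at 48 h in control fins, without overlap. *apba2b*, a neuronal adaptor that binds the amyloid precursor protein, rose by 2.54 ± 0.15 and 1.83 ± 0.15, from 3.11, 3.06 and 2.90 to 5.76, 5.59 and 5.33 in control fins. Its 24 h arrays were all under the signal minimum of 4 and its 48 h arrays all above it. The control arrays at 48 h alone meet that minimum, so its membership may rest on arrays of the rise that was tested. On the 0 and 12 h arrays alone, 68 of 71 control-up and 46 of 47 memory-up members reached the minimum. The few others passed it only with arrays at 24 or 48 h. The counts of members called from 24 to 48 h set none of these aside and include *apba2b*. Those counts are therefore not wholly apart from the filter, and the rise of *apba2b* is given as a description. *cnpy4* rose by 0.68 ± 0.18 in control and 1.39 ± 0.18 in memory fins, its means level at 48 h. *ccn1* rose in control fins on its first probe set, by 1.32 ± 0.40 (limma adjusted p = 0.0160), a call lost without control array 3 at 24 h or control array 1 at 48 h. In memory fins the same probe set gave 0.14 ± 0.40.

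**Figure D5:**
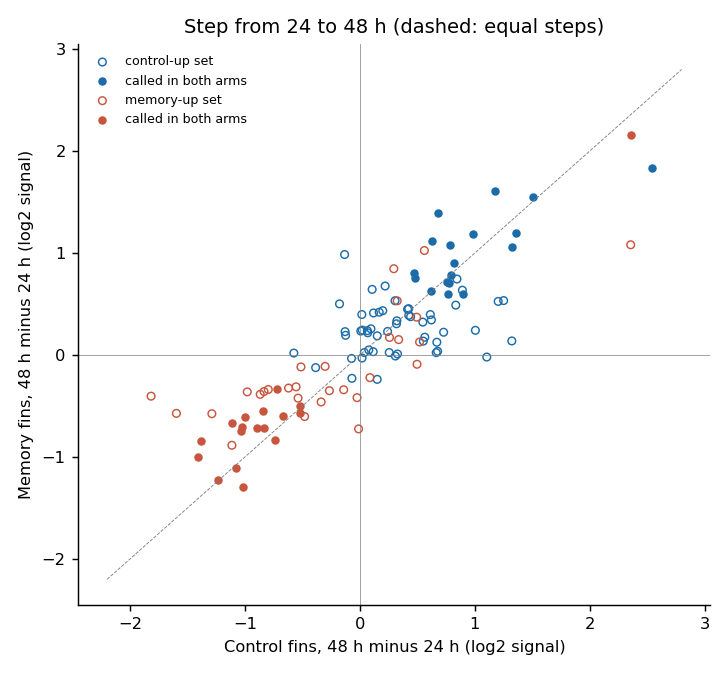
Log2 difference between 48 h and 24 h in control fins (horizontal) and memory fins (vertical) for the 71 control-up (blue) and 47 memory-up members (red), with filled points called in both arms (18 and 18) and a dashed line of equal steps. Blue points lie mostly up and to the right and red points mostly down and to the left. *apba2b*, at 2.54 and 1.83, is the filled blue point farthest to the right. Its control arrays at 24 h were under the signal minimum of 4.

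The size of the step from 24 to 48 h was not found to differ between the arms for any member. The test of the difference of steps called 0 of 118 members by limma, at a lowest adjusted p of 0.401, and 4 of all 10140 probe sets (0.0394%, with 0.0197% in each direction). At an unadjusted p under 0.05 there were 9 control-up and 3 memory-up members, that is 12.7% and 6.38%, beside 7.53% of all probe sets, and the fit without moderation called 0. For *ccn1* the difference of the steps was -1.18 ± 0.57 (limma adjusted p = 0.662), so a larger gap at 48 h than at 24 h was not shown. For *cnpy4* it was 0.71 ± 0.25 (0.503), and for *fnip1*, whose arms were level at 48 h, -0.71 ± 0.31, with an adjusted p of 0.60.

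Several member genes were read by more than 1 probe set. Over 19 such genes, *ccn1*, *insig1* and *ptpmt1*, a mitochondrial phosphatase of cardiolipin synthesis, had 2 members each. A further 16 probe sets of 13 of these genes reached the signal minimum without being members. In all 16 the 12 h change differed between the arms in the member's sense, and in 11 the changes were of opposite sign. The *tp63* probe set with the higher signal differed by -0.38 in control and 0.31 in memory fins at 12 h, and at 48 h was higher in memory fins by 0.50 (limma adjusted p = 0.0273). Other *nrarpa* probe sets were higher at 48 h by 1.06 and 0.79 (limma adjusted p of 0.0315 and 0.0376), and another *insig1* probe set was higher at 24 h by 1.29 (0.0183). The *nrarpa* probe set with the highest signal was lower at 12 h in both arms, with differences of -1.01 in control and -0.17 in memory fins. Probe sets of *rnf130* also disagreed at 12 h, the other one being lower in both arms, by -0.98 in control and -1.33 in memory fins. At 24 h both *rnf130* probe sets were lower in memory fins. For *zc3h18* and *slc37a4a* a further probe set was higher at 12 h in both arms. The differences were 1.07 and 0.36 in control and 0.09 and 0.14 in memory fins. The other *cldn7b* probe set had the higher mean signal, 11.40 against 8.98. Its 12 h differences were smaller, -0.10 in control and 0.18 in memory fins.

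Members most like each other over the 12 arrays at 24 and 48 h came mostly from the same set. By Pearson correlation, as a description over arrays that share 4 groups, *ccn1* was most like *pdcd4b* (0.956), *olah* (0.897) and *gtf3c3* (0.849). *tp63* was most like *rdh12l* (0.946), *tmcc1b* (0.938) and *itga6b* (0.935). *slmapb* was most like *stn1* (0.875), *cbx1a* (0.851) and *rnf130* (0.842). *insig1* stood more alone, its closest member being *trim24* at 0.729.

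Of 11 lists of cell type markers at 4 times, the arms did not overlap in 18 of 44 cases, with memory fins higher in 14 and lower in 4. Of all single probe sets, 13.4% at 24 h and 17.3% at 48 h had memory fins higher without overlap. Memory fins were lower without overlap in 15.4% and 14.1%. Whether the list means part more often than that was not tested. The epidermal list of 6 genes, which includes *tp63*, had mean log2 signals of 12.50 to 12.68 in control and 12.77 to 12.94 in memory fins at 12 h, and of 12.11 to 12.29 and 12.30 to 12.39 at 48 h, in the direction of the memory-up set. Without *tp63* the ranges were 12.85 to 13.04 and 13.05 to 13.23 at 12 h, and they overlapped at 48 h, with 12.55 to 12.70 and 12.65 to 12.72. By group means at 12 h the shift was largest in *tp63*, 11.35 in memory against 10.81 in control fins, and *epcam*, 14.03 against 13.62. *krt8* and *cldna* were higher by less, and *krt8* was already higher at 0 h, 13.17 against 12.85. *krt4* and *krt5* were nearly level, 14.62 against 14.59 and 13.89 against 13.90. At 48 h *krt5* was lower in memory fins, 13.66 against 13.82, and *cldna* nearly level. The 3 fin mesenchyme markers had 9.88 to 10.13 in control and 9.38 to 9.73 in memory fins at 12 h, in the direction of the control-up set. At 24 h their order was the reverse, with 10.43 to 10.60 in control and 10.63 to 10.87 in memory fins.

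Markers of neutrophils and macrophages, 5 of 6 measured, were higher in memory fins at 0 h, 6.69 to 6.96 against 5.94 to 6.22, at 24 h, 5.66 to 5.89 against 5.41 to 5.46, and at 48 h, 5.35 to 5.72 against 5.204 to 5.314. The mean of the nerve and Schwann cell markers was higher in memory fins at 12 h, 4.48 to 4.78 against 4.17 to 4.42. It was also higher at 24 h, 3.68 to 3.73 against 3.54 to 3.64, and at 48 h, 3.13 to 3.26 against 2.98 to 3.098. At 24 and 48 h this lay in *gap43*, at 6.22 against 5.45 and 4.36 against 3.67. *mbpa* was lower in memory fins, 3.27 against 3.50 and 3.02 against 3.09, and *sox10* and *elavl3* were nearly level. Endothelial markers were higher in memory fins at 12 h, 6.46 to 6.50 against 5.97 to 6.12, and lower at 24 h, 6.17 to 6.27 against 6.33 to 6.48. Also at 24 h, the mean of the erythrocyte markers was higher in memory fins, 4.57 to 5.45 against 3.85 to 4.31. Of 3 measured, only *hbaa1* reached the signal minimum, with 9.35 against 6.72. The mean of the fin ray and bone markers was lower, 4.43 to 4.57 against 4.68 to 4.74. This lay mostly in *col10a1a*, with 7.91 against 8.44, while *runx2b* and *sp7* were under 4. Pigment cell markers were higher in memory fins at 0 h, 3.51 to 3.80 against 3.101 to 3.44, and of 2 measured only *mitfa* reached the minimum. The muscle list, lower in memory fins at 24 h, stayed under a mean of 3 on every array. The single measured lymphocyte and lateral line markers, higher in memory fins at 12 h, never reached 2.4. The part of these differences in the members' values was not tested.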

How the data were processed

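Total RNA from caudal fins was hybridised to Affymetrix arrays, per the labels' protocols. Values were deposited by the authors as log2 signal per probe set, and the submitters' processing notes name GCRMA and Partek; versions are not given in the sources used here, and the log2 scale was read from the values. Of 15617 rows, 115 array controls were left out. Probe sets were named from the platform annotation and NCBI gene records (10802 with 1 symbol). Members and gene lists were chosen with earlier results of these data known.

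A limma 3.58.1 model (R 4.3.3; moderated, no trend) with a mean for each of the 8 groups was fitted over 24 arrays, after checking the script on simulated data; p-values were Benjamini-Hochberg adjusted over 10140 probe sets. Errors are standard errors of that fit. Memory against control at 24 and 48 h, 48 against 24 h in each arm and the difference of those steps were tested. Named genes were single-symbol members, excluding clone names: in each set up to 15 probe sets with the largest smaller change and no overlap of arrays, which gave 15 control-up and 13 memory-up ones, the 5 largest called rises and falls, list members, genes with several probe sets and the threshold's neighbours. Alternatives covered the filter, scaling, moderation, threshold, samples fitted, replicate block and each array left out. No sequences or promoter motifs were analysed here. The number of arrays limits the precision.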

Additional observations from a re-analysis of the deposited data

Results flagged for a closer look

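In 41 control-up and 25 memory-up members, every array of one arm at 12 h was above every array at 0 h, and every array of the other arm was below. These are 57.7% and 53.2% of the sets, beside 55.8% of all probe sets whose 12 h and 0 h arrays did not overlap in either arm, whatever the direction. The rule that chose the members required the opposite means, and the difference between the arms was not tested on those arrays.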

How the results depend on the processing

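No control-up member was called higher, and no memory-up member lower, in memory fins at 24 or 48 h under any alternative run. Over the alternatives the memory mean was lower in 52 to 57 control-up members at 24 h and 56 to 60 at 48 h, and higher in 27 to 35 and 34 to 37 memory-up members. Calls at 24 h numbered 9 with no filter, 9 without moderation, 6 with only the groups compared and 5 with a change of at least 1, against 14. Calls at 48 h numbered 10 without moderation and 9 with a change of at least 1, against 18. The share of all probe sets called under each alternative was not compared with these counts. With that change required, the step from 24 to 48 h gave 24 calls in control fins against 60, and 14 in memory fins against 47. Leaving out 1 array gave 1 to 19 calls at 24 h, 5 to 20 at 48 h, 46 to 63 for the control step, 34 to 46 for the memory step and 103 to 143 members; 37 members were in all 12 of these sets. A threshold of 0.3 gave 232 members, 0.6 gave 23 and 1 gave 1. The split of 71 control-up to 47 memory-up members depended on scaling, becoming 51 to 63 with arrays centred on their medians and 52 to 57 after a further quantile normalization. The causes were not tested. With the replicate block, calls numbered 19, 25, 61, 51 and 0 in the 5 comparisons, and the labels state no shared origin for the numbers. Deviations of same-numbered samples correlated above 0.1 in 6 of 18 pairs of groups, 4 of them between 24 and 48 h within an arm for numbers 1 and 3 (0.179 to 0.277) and 2 between the arms at 12 h for the same numbers; since not every pair did, the numbers were not taken to pair the samples. In 14 of 24 comparisons at 24 and 48 h an array correlated best with its own number. Between 24 and 48 h within an arm this held in 6 of 6 comparisons in memory fins and 5 of 6 in control fins. Between the arms it held in 3 of 6 at 24 h and 0 of 6 at 48 h. The steps from 24 to 48 h were tested without pairing by number. Alternatives were listed for the 81 results of named genes that were called in the main fit. Of their 1200 values, 978 kept direction and call, 222 kept direction and lost the call, and 0 reversed. Among results chosen by their call, a reversal was unlikely beforehand. Requiring a change of at least 1 reuses the main values, so it could not reverse any. With 3 arrays a group, small differences cannot be resolved.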

Other observations

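A control-up probe set with no gene name, the 1 member with both changes above 1, varied widely between arrays of 1 group. Memory fins at 0 h read 11.40, 10.95 and 10.74, and control fins at 0 h read 3.32, 10.29 and 2.85. At 24 h control fins read 8.88, 3.43 and 9.56, and memory fins 10.27, 7.97 and 9.45. Its standard error in the fit was 1.65, against changes of 2.39 in control and -1.25 in memory fins from 0 to 12 h.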
